A study of Mus musculus with 2 samples.

Results

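Of the 19531 islands of clustered reads in the deposited table, 866 lay at noncoding RNA genes with their midpoints outside protein-coding genes. They were chosen by position: each overlapped by at least 1 bp a RefSeq gene annotated as a long noncoding RNA (lncRNA) or a microRNA, and its midpoint lay over 1 kb and at most 50 kb outside every protein-coding gene. Only the midpoint was held to this limit, so 19 of the 866 overlapped a coding gene at one edge, and every distance below runs from the midpoint. Islands with 200 or more peak-library reads and mitochondrial islands were left out. The reference holds no gene with the plain biotype ncRNA, so the class rests on 12727 lncRNA and 1228 microRNA genes of assembly GRCm38.p6, which is the mm10 build of the islands. The 866 islands made up 4.44% of the 19513 nuclear islands under that read limit, and 23.7% of the 3653 such islands that lay 1 to 50 kb from coding genes.

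The assay was chromatin immunocleavage with sequencing (ChIC-seq): micrococcal nuclease is tethered through an antibody to a chromatin protein, and the DNA it cuts free is sequenced. The antibody was against TCF-1, an HMG-box transcription factor encoded by Tcf7. Both libraries were made from 500 formaldehyde-fixed lymphoid tissue inducer (LTi) cells of C57BL/6 mice, sorted as CD127+ and CCR6+ and negative for lineage markers, KLRG1, NK1.1 and NKp46. The cells of 1 library were Tcf7+/+ and from Peyer's patches. Those of the other were Tcf7fl/fl-VavCre and from small intestine lamina propria. Vav-driven Cre acts throughout blood-forming cells and not in LTi cells alone. Genotype and tissue changed together with 1 library each, so they cannot be told apart and no difference has a replicate check. The table names a peak and a control library but ties neither to a sample, so no value below is a difference between genotypes. No RNA was measured, so neither the cell type nor the activity of any noncoding gene could be read from these files.

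LncRNA genes are transcribed into RNAs that are not translated. Some act on a neighbouring gene in cis, some build nuclear bodies, and for many no function is known. Their annotations often run through intergenic DNA that also holds enhancers of the coding genes nearby. MicroRNAs are cut from hairpins in longer transcripts and pair with messenger RNAs through a seed near their 5′ end. TCF-1 acts with Wnt signalling and in the early programme of T cells and innate lymphoid cells, and is known to bind mostly at distal sites.

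The microRNA sequences under or beside these islands are shown because they identify the regulatory RNAs whose loci carried reads. They are RefSeq entries of GRCm38.p6, written 5′ to 3′, with the seed (bases 2 to 8) in capitals.
mmu-miR-142a-5p: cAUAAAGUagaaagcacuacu
mmu-miR-142a-3p: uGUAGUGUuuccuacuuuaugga
mmu-miR-142b: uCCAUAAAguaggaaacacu
mmu-let-7i-5p: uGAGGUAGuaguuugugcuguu
mmu-miR-760-3p: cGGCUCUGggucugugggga
mmu-miR-155-5p: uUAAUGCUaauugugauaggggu
No seed was shared among the 13 mature microRNAs of these loci. The let-7i-5p seed GAGGUAG marks the let-7 family and stands in 13 of the 1738 mature microRNAs of the table. The seeds of miR-142a-5p, miR-142a-3p, miR-142b and miR-155-5p stand in 1 each, and that of miR-760-3p in 2. The Mir142 and Mir142b hairpins lie over each other on opposite strands, at 87756864 to 87756927 and 87756841 to 87756955 of chromosome 11.

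A microRNA gene lay under 6 of the 866 islands. The island at Mir142, a microRNA gene of blood-forming cells, ran from 87753601 to 87757800 on chromosome 11 and held 60 peak-library against 31 control-library reads. Its fold of 0.969 had a 95% interval of 0.618 to 1.55, so the peak library held no excess there that counting error could separate from 1. Fold here means peak-library reads over control-library reads times 1.997, the scaling factor of the island caller. Folds and FDR values of single islands are the authors' own. Intervals of folds are exact conditional binomial (Clopper-Pearson), and cover only counting error, because each group has 1 library. Whether PCR copies of a molecule were counted as separate reads is not known here. At Mirlet7i, on chromosome 10 at 122984801 to 122989000, there were 50 against 16 reads and a fold of 1.56 (0.876 to 2.94). Mir760 on chromosome 3 had 41 against 11 reads and a fold of 1.87 (0.942 to 4.03). The 3 other islands were low in reads, with 18 against 8 at Mir7671, 14 against 16 at Mir6236 and 10 against 2 at Mir713. The interval at Mir6236, 0.198 to 0.958 around a fold of 0.438, lay below 1 without adjustment for the number of islands, and the adjusted p was 0.246 (exact binomial test, Benjamini-Hochberg).

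Mir155hg, the host gene of the microRNA miR-155 of activated lymphocytes, carried 1 island over its start, at 84711801 to 84713600 on chromosome 16. It held 16 against 4 reads, a fold of 2.00 (0.646 to 8.23), and ended 540 bp before the Mir155 hairpin. Of the 42 lymphocyte microRNA and host genes listed, 41 are in the reference and 2, Mir142 and Mir155hg, were under these islands. Both together had 76 against 35 reads, for a pooled fold of 1.09 (0.720 to 1.67).

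Across the class, peak-library reads exceeded scaled control reads by a modest factor. Islands are picked where reads of the peak library cluster, so an excess of peak-library reads is partly fixed by that choice. The 866 islands held 16730 against 4936 reads, a pooled fold of 1.70 (1.64 to 1.75), where all 19513 nuclear islands stood at 1.62 (1.61 to 1.63). The median fold was 1.90 (quartiles 1.37 and 3.34), against 1.84 over all nuclear islands. The median island had 15 peak-library reads (quartiles 11 and 22), 4 control-library reads (2 and 7) and a width of 1400 bp, and the class covered 1425 kb. The highest count was 152 against 83 reads at Gm40034 on chromosome 2, a fold of 0.917. The only island removed by the read limit, at Gm33838 on chromosome 9, had 3163 against 1926 reads.

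**Figure D1:**
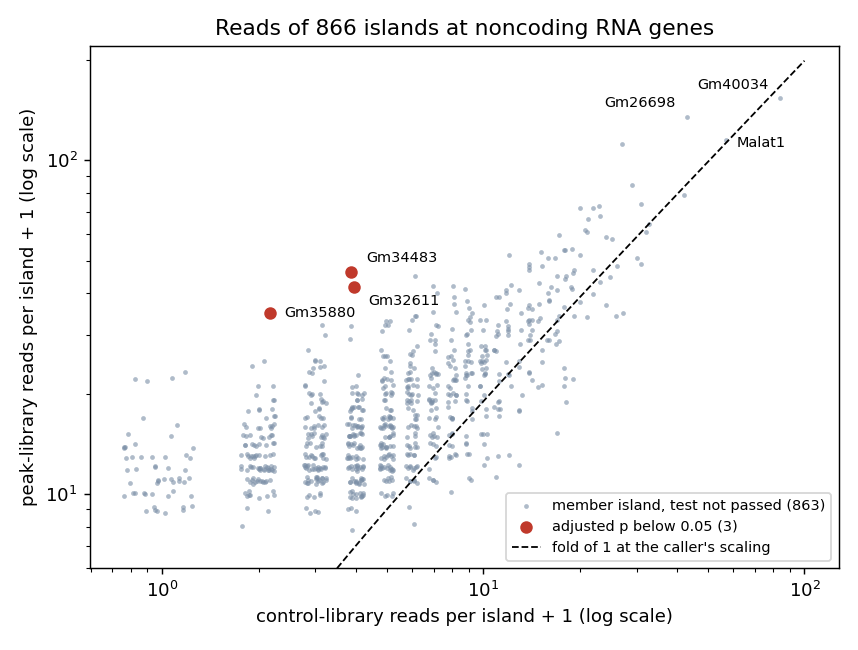
Reads of the 866 islands, peak library (vertical) against control library (horizontal), each plus 1 on log axes with a small random shift within whole reads. Each point is 1 island, the dashed line is a fold of 1 at the scaling of 1.997, and the 3 red points passed the binomial test. Most points lie above the line, and Malat1 and Gm40034, with many reads in both libraries, lie near it.

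Islands whose deposited FDR was at most 0.05 are termed called. Of the 866 islands 561 were called, 64.8% (61.5 to 68.0%), where 62.6% of all nuclear islands were. An FDR of at most 1e-05 was reached by 198 (22.9%), with a background of 20.7%. A fold below 1 was found for 80 islands, 9.24%, against 10.1% of all. No control-library read was found in 54 islands, 6.24%, against 5.70% of all. These shares lay near the background, so none of them sets the class apart. In the island caller's own test the scaled control count enters as a fixed expectation. An exact binomial test of both counts, two-sided and with Benjamini-Hochberg adjustment over the 19513 islands, passed 3 of the 866, 0.346%, beside 0.256% of all. At an unadjusted p below 0.05 it passed 162 (18.7%), against a background of 18.5%. The test compares reads of these 2 libraries, not the conditions. It sets each island against a fold of 1, and the picking of islands by peak-library reads favours passing it. With the totals of the 2 columns over the whole table set equal, the test passed 0 of the 866.

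The 3 islands that passed lay inside lncRNA genes, none of them over a gene start or end. The island at Gm35880 was on chromosome 1 at 64134401 to 64137000 and held 34 against 1 reads, a fold of 17.0 (2.86 to 692; adjusted p = 0.0193, binomial test). Gm35880 starts at 64121567, within the coordinates of Klf7, a gene for a Krüppel-like transcription factor, and the island midpoint lay 13355 bp outside Klf7. The island at Gm34483, on chromosome 2 at 102947201 to 102949800, held 45 against 3 reads, a fold of 7.51 (2.41 to 37.8; adjusted p = 0.0193, binomial test). Its nearest coding gene, at 46831 bp, was Cd44, which encodes the hyaluronan receptor of migrating lymphocytes. The island on chromosome 4 at 125175601 to 125178400 lay in both Gm32611 and Gm40245 and held 41 against 3 reads, a fold of 6.84 (2.18 to 34.6; adjusted p = 0.0344, binomial test). Zc3h12a, which encodes the RNase Regnase-1 that degrades cytokine messenger RNAs, was nearest at 49119 bp. With equal totals the 3 folds were 13.3, 5.87 and 5.35.

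The lowest FDR values went mostly to islands with no control-library read, whose deposited folds rest on a stand-in value and are not used here. Gm42312 on chromosome 4 had 22 against 0 reads. Taking 3 control reads as the floor for an island, its fold was 3.67, and its interval began at 2.74. The islands at Gm39692, Gm35486 and Gm34455 had 21 against 0 reads each. Their fold was 3.51 with the same floor, and their intervals began at 2.61. The island at Gm39692 lay 21478 bp from Xcl1, a chemokine gene of NK and T cells. That at Gm35486 lay 4790 bp from Fbxw7, a gene for a subunit of a ubiquitin ligase. That at Gm34455 lay 17991 bp from Dusp1, a gene for a MAP kinase phosphatase. The adjusted p of the binomial test was 0.0524 for Gm42312 and 0.0647 for each of the others. A second island of Gm34455, 2191 bp from Dusp1, had 17 against 10 reads and a fold of 0.851 (0.368 to 2.08), so islands of 1 lncRNA gene differed widely in their ratio.

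Among islands with at least 20 peak-library reads and any control read, the highest folds apart from the 3 that passed had 1 or 2 control-library reads. A230108P19Rik had 24 against 1 reads, a fold of 12.0 (1.96 to 494), and Gm17753 had 23 against 1, a fold of 11.5 (1.87 to 474). Gm30959 and Gm36152 had 20 against 1 reads each, a fold of 10.0 (1.60 to 415). The islands at 4930525D18Rik (31 against 2), Gm29811 (29 against 2) and Gm42290 (26 against 2) had folds of 7.76, 7.26 and 6.51. None of these 7 passed the binomial test, and a fold that led to an island being picked tends to be too large. The lowest folds in islands of that read count were 0.584 at Gm36264 (21 against 18 reads), 0.589 at Gm32276 (20 against 17) and 0.619 at A930015D03Rik (21 against 17), with intervals that include 1. The widest islands were at Gm26698 (12000 bp, 134 against 42 reads, fold 1.60, 1.12 to 2.32), Malat1 (7800 bp) and 3300005D01Rik (6800 bp, 111 against 26 reads, fold 2.14, 1.38 to 3.42).

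Distance from coding genes went with the fold, with or without a noncoding gene. From 1 to 5 kb, 220 islands of the class had a pooled fold of 1.54 (1.45 to 1.63). From 20 to 50 kb, 280 islands had 1.83 (1.73 to 1.94). Islands in the same 2 distance ranges that overlapped no noncoding RNA gene had pooled folds of 1.67 (1.62 to 1.73; 940 islands) and 1.93 (1.86 to 2.02; 685 islands). Over the whole range of 1 to 50 kb, the 2787 islands without a noncoding gene stood at 1.78 (1.75 to 1.81), above the 1.70 (1.64 to 1.75) of the class, although they lay closer to coding genes, at a median of 8824 bp against 11724.5 bp. Islands of the class more often held at least 20 peak-library reads, 32.8% (29.7 to 36.0%) against 25.3% (23.7 to 27.0%) for the islands at that distance without a noncoding gene. The share was 36.1% over all nuclear islands and 39.0% in or within 1 kb of coding genes, both above the class. No such difference was tested over replicates. The intervals of folds cover counting error of reads only, and those of shares treat islands as independent of each other. A wider island also meets a noncoding gene more readily, and its part in these shares was not tested. Just inside the limits lay islands at Gm39188, 1018 bp from Zfp930 with 27 against 12 reads, and at Gm10858, 49874 bp from Rasl11a with 15 against 3. Just outside the lower limit lay 1 at Gm51915, 995 bp from a coding gene, with 28 against 5 reads. Just outside the upper limit lay 1 at Gm15326, 50031 bp from Map3k1, with 25 against 17 reads.

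**Figure D2:**
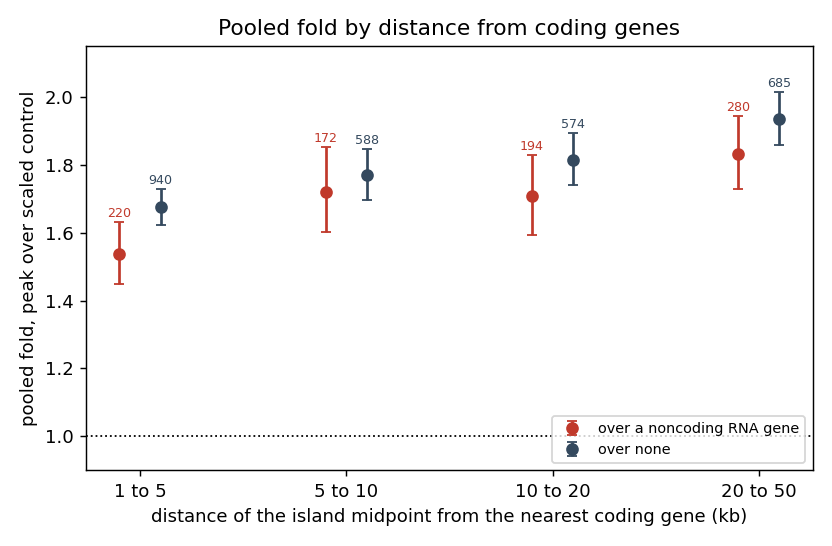
Pooled fold (vertical) in 4 ranges of distance from the nearest coding gene (horizontal, kb), for islands over a noncoding RNA gene (red) and over none (dark). Points are pooled folds, bars are 95% intervals of counting error, and the number of islands stands above each bar. In each range the red point lies below the dark one, and both are lower at 1 to 5 kb than at 20 to 50 kb.

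Islands over the start of a noncoding gene held more reads and had a lower fold than islands inside the gene. RefSeq promoter windows gave a strand and start for 553 of the 737 noncoding genes, and so for 664 of the 866 islands. A start lay under 212 of these, 31.9%. A gene end without a start lay under 73, and 379 lay elsewhere in the gene. Islands over a start had a median of 21 peak-library reads, a median width of 1800 bp and a pooled fold of 1.54 (1.45 to 1.62). Islands in gene bodies had a median of 13 reads, a width of 1400 bp and a pooled fold of 1.90 (1.79 to 2.00). With islands of at least 20 peak-library reads alone, the values were 1.45 (1.36 to 1.54) over starts and 1.74 (1.60 to 1.89) in bodies. For comparison, 6051 nuclear islands over starts of coding genes had 1.41 (1.40 to 1.43). A wider island is more likely to cover a start, so the differences in width and reads are partly fixed by the sorting. The difference between starts and bodies had no replicate and was not tested.

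**Figure D3:**
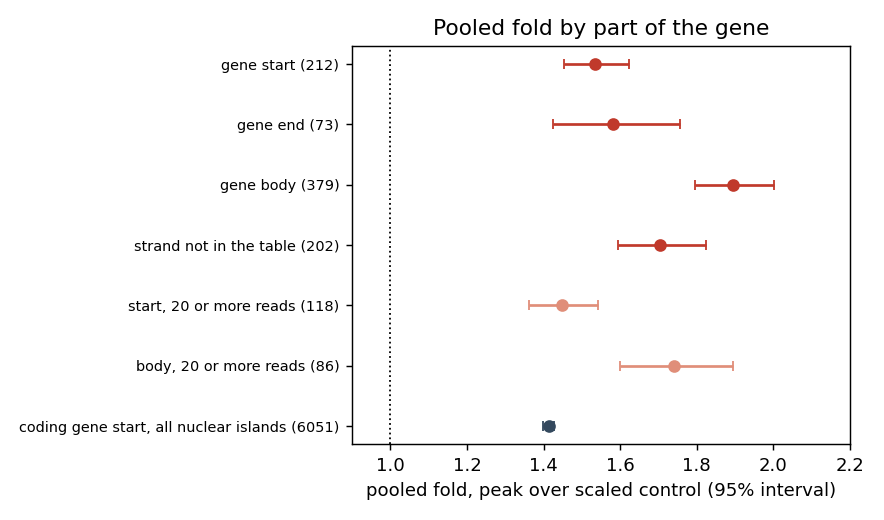
Pooled fold with 95% intervals of counting error (horizontal) by the part of the noncoding gene under the island, with the number of islands in brackets. Red rows are islands of the class, light red rows those with at least 20 peak-library reads, and the dark row all nuclear islands over a coding gene start. Islands over starts lie to the left of islands in gene bodies in both sets.

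Of the 664 islands with a known strand, 218 had their midpoint within 1 kb of a start and 408 within 5 kb, and 88 lay over 20 kb from one. The median distance was 2742 bp. The midpoint lay upstream of the nearest start in 101 islands. Each island had to overlap its gene, and some genes have several starts.

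**Figure D4:**
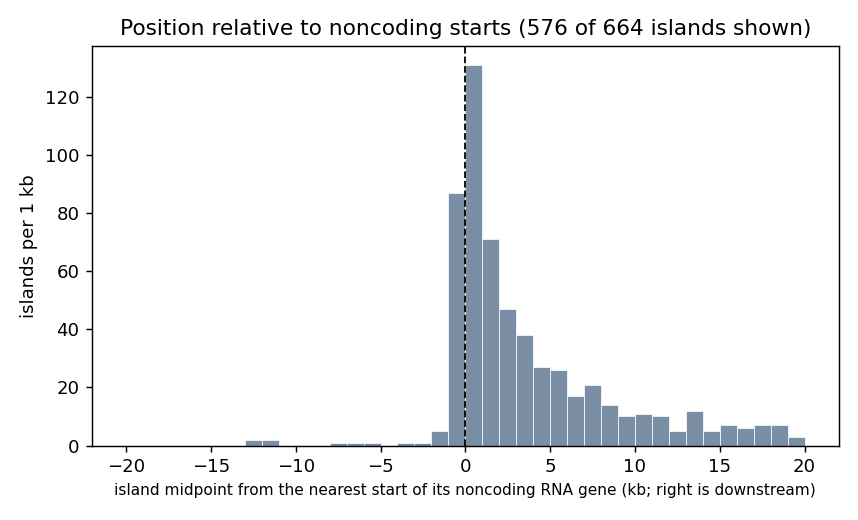
Islands per 1 kb (vertical) by the position of their midpoint from the nearest start of the noncoding gene they overlap (horizontal, kb, downstream to the right). Islands within 20 kb are shown. The count is highest within 1 kb of the start and declines downstream, with few islands over 1 kb upstream. Each island had to overlap its gene.

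Promoter windows show what lay at these starts. Each window spans 250 bases before to 50 after a start, and 248 windows of 222 genes lay under islands of the class. Their median GC content was 52.7% (quartiles 46.6 and 58.7%), against 48.3% over all 11588 lncRNA windows and 56.3% over the 21263 coding windows. The median number of CG dinucleotides was 8, against 4 and 13. The letters CTTTGAT, the core that TCF and LEF factors are known to prefer, were searched on both strands (ATCAAAG on the other). They stood in 10 of the 248 windows, 4.03% (1.95 to 7.29%), in 4.67% of all lncRNA windows and in 3.73% of all 32851 windows. The share under the islands lay near the background. A match is a description of the letters, and their absence from a window says nothing about the rest of the island, whose sequence was not used here.

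The windows of 3 genes are printed as examples, the match in capitals. Gm36152, with the highest fold over a start among islands of at least 20 peak-library reads (20 against 1), and Gm41168, chosen after its values were seen, carry the letters. Mir155hg does not. All 3 are on the plus strand of GRCm38.p6, at chr17:67358572-67358871, chr14:61056512-61056811 and chr16:84712773-84713072.
Gm36152: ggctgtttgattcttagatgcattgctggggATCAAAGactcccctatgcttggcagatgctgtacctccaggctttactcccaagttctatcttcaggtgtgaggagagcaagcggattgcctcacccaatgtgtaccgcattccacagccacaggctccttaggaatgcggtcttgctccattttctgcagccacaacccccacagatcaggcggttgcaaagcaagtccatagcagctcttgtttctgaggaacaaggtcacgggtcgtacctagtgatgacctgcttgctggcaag
Gm41168: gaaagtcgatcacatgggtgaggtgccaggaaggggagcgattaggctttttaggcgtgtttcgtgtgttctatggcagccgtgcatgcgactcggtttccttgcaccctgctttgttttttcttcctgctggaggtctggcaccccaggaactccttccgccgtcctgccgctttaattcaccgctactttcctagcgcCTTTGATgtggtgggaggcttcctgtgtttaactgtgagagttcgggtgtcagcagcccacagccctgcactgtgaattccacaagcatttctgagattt
Mir155hg: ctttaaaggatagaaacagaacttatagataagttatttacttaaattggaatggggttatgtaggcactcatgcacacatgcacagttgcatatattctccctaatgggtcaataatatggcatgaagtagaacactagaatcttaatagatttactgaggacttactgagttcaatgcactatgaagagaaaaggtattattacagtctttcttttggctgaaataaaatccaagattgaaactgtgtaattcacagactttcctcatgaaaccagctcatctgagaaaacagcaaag
Counted from the start, the match begins at position -219 in Gm36152 and at position -50 in Gm41168. The island over Gm41168 lay on chromosome 14 at 61056201 to 61058200 and held 32 against 4 reads, a fold of 4.01. Among the 10 windows with the letters, island folds ran from 0.723 at Gm40720 and 0.784 at Snhg8 to 10.0 at Gm36152, so windows with the letters lay on both sides of 1.

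The islands fell on 737 noncoding genes, 730 lncRNA and 7 microRNA genes. Most, 680, carry only a systematic name (Gm, Rik or LOC). A single island was found on 612 of them, 2 islands on 96, and 3 or more on 29. The islands had 669 different nearest coding genes. Chromosome 11 held the most, 97 islands or 5.28% of its nuclear islands, chromosome 12 the highest share of its own, 6.47% (49 islands), and chromosome X 6, or 2.37%.

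Gm12223 carried the most islands of the class, 9 of the 11 nuclear islands under 200 peak reads on it. All 9 were called (62.6% of all nuclear islands). This lncRNA gene spans 54141868 to 54260537 on chromosome 11, a stretch that contains Csf2, the gene for the cytokine GM-CSF. In order of position the 9 islands held 12 against 0, 15 against 1, 16 against 4, 31 against 11, 24 against 2, 15 against 1, 14 against 2, 15 against 1 and 18 against 5 reads. All 9 had more peak-library than scaled control reads, and the pooled fold was 2.97 (1.97 to 4.64) from 160 against 27 reads. None of the 9 passed the binomial test after adjustment. The 5 islands nearest Csf2 lay 7070 to 45170 bp from it, and the 4 others were nearest P4ha2, a gene for a collagen-modifying enzyme.

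Gm12216, also on chromosome 11, carried 8 islands, 4 of them called (62.6% of all nuclear islands). Some were nearest Irf1, the gene for an interferon regulatory factor, and the others nearest Slc22a5. The 8 islands held 133 against 50 reads, a pooled fold of 1.33 (0.956 to 1.88). Within this gene the folds ran from 0.601 (12 against 10 reads) to 6.01 (12 against 1), and both of those islands were nearest Slc22a5. The island with the most reads, at 53793801 to 53796200 and 16626 bp from Irf1, had 50 against 15 reads and a fold of 1.67 (0.922 to 3.20). Gm1604a on chromosome 17 carried 7 islands with 94 against 27 reads, for a pooled fold of 1.74 (1.13 to 2.78). They were nearest either Tagap, a gene for a GTPase-activating protein of T cells, or Fndc1. Gm33742 near Dhx40 carried 5 islands with 100 against 25 reads, for a pooled fold of 2.00 (1.28 to 3.24).

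Not all genes with many islands had a fold above 1. Chaserr, an lncRNA known to restrain expression of the neighbouring chromatin remodeller Chd2, carried 5 islands on chromosome 7. They held 11 against 12, 23 against 12, 23 against 9, 34 against 12 and 33 against 25 reads, and the pooled fold was 0.887 (0.657 to 1.21). The last of them covers the Chaserr start and had a fold of 0.661 (0.381 to 1.16). A930015D03Rik, in the major histocompatibility region beside H2-T24, had 5 islands with 81 against 41 reads, for a pooled fold of 0.989 (0.671 to 1.48). Its islands were uneven: 1 of 600 bp held 22 against 2 reads, and the next, 21 against 17.

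Of 24 genes of abundant nuclear and structural RNAs listed, 6 lay under 7 islands, with 301 against 131 reads, for a pooled fold of 1.15 (0.934 to 1.42), and 2 of the 7 were called (62.6% of all nuclear islands). Malat1, a lncRNA of nuclear speckles, had 114 against 56 reads over its start and 13 against 5 in its body, with a pooled fold of 1.04 (0.762 to 1.44). Neat1, the scaffold of paraspeckles, had 63 against 32 reads, a fold of 0.986 (0.635 to 1.56). Dleu2, a microRNA host gene, had 19 against 4 reads and a fold of 2.38 (0.791 to 9.61). The small nucleolar RNA host genes Snhg3, Snhg5 and Snhg12 had 26 against 9, 36 against 14 and 30 against 11 reads, with folds of 1.45, 1.29 and 1.37. All 6 pooled intervals include 1. Of the 19 lncRNAs listed for lymphocytes 10 are in the reference under the listed symbol, and none lay under an island of the class.

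**Figure D5:**
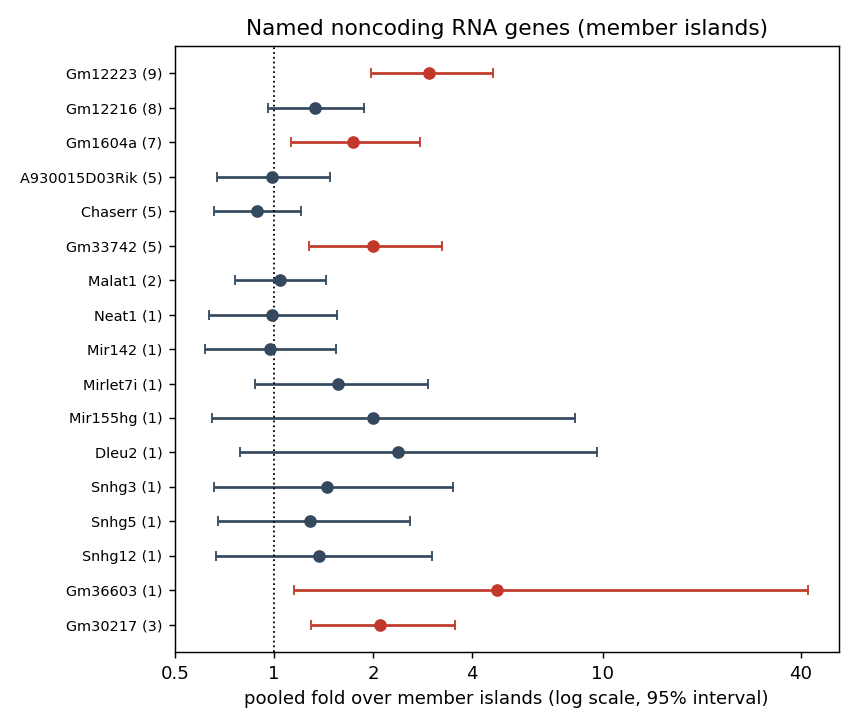
Pooled fold with 95% intervals of counting error (horizontal, log axis) for 17 named noncoding genes, over their islands in the class, whose number is in brackets. Red marks an interval wholly above 1. Gm12223, Gm1604a, Gm33742, Gm36603 and Gm30217 lie above 1, while Malat1, Neat1, Mir142, Chaserr and A930015D03Rik lie close to it. The picking of islands by peak-library reads partly fixes a fold above 1. Of the red intervals only that of Gm12223 lies above the pooled fold of the class, 1.70, and the others include it.

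The coding genes beside these islands were read from marker and pathway lists. A nearest coding gene is a position and does not show which gene, if any, an island acts on. The 3 islands that passed the binomial test were nearest to none of the listed genes. Among 28 genes of LTi cells and group 3 innate lymphoid cells, 2 were nearest to 6 islands: Csf2 with the 5 of Gm12223 above, and Ccr6, the chemokine receptor used in the sort. The Ccr6 island lay 7881 bp away in Gm33799, with 10 against 2 reads, which gave a fold of 2.50 (0.534 to 23.5). All 6 were called, and their pooled fold was 3.70 (2.06 to 7.20), with a median fold of 4.76 against 1.90 over the class. That value rests mostly on 1 gene, 62.6% of all nuclear islands were called, and the islands of 2 lists of other innate lymphoid cells, given below, were also all called.

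In the list of Wnt signalling and TCF factors, 4 of 25 genes were nearest to 6 islands, 5 of them called (62.6% of all nuclear islands). The pooled fold was 1.83 (1.35 to 2.52), an interval that includes the 1.70 of the class. None of the 6 passed the binomial test after adjustment. Lef1 encodes the closest relative of TCF-1. The island beside it, in Gm36603 on chromosome 3 at 131105201 to 131106400, held 19 against 2 reads and had a fold of 4.76 (1.15 to 42.1). Tcf7, the floxed gene of the Tcf7fl/fl-VavCre cells, was nearest to 3 islands on Gm30217, 28117 to 35217 bp away, with 11 against 2, 40 against 11 and 37 against 8 reads. Their pooled fold was 2.10 (1.29 to 3.56). The corepressor gene Tle3 was overlapped at its edge by an island over the start of Gm34157, whose midpoint lay 1126 bp outside it, with 67 against 22 reads, which gave a fold of 1.53 (0.930 to 2.59). At Tle2, another corepressor gene, the island over the start of Gm31936 held 23 against 9 reads, a fold of 1.28 (0.570 to 3.14).

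Genes of cell activation and AP-1 factors were nearest to 18 islands, at 8 of 21 genes, of which 7 were called and 4 had a fold below 1 (62.6% and 10.1% of all nuclear islands). The pooled fold was 1.33 (1.09 to 1.63). Fos, an AP-1 subunit gene, had 3 such islands, the largest with 72 against 22 reads in Gm38543 and a fold of 1.64 (1.00 to 2.78). Cd69, an activation marker that retains lymphocytes in tissue, had 3 in 2310001H17Rik with 14 against 7, 16 against 4 and 28 against 16 reads, a pooled fold of 1.08 (0.670 to 1.77). Btg1, an antiproliferative gene, had 2 in Gm33843, with 21 against 2 and 13 against 6 reads. In the list of cytokine and NF-kB signalling, 5 of 19 genes were nearest to 6 islands, 2 of them called and 2 with a fold below 1 (62.6% and 10.1% of all nuclear islands), and the pooled fold was 1.17 (0.864 to 1.60). Jak1, a kinase of cytokine receptors, had the highest fold among them, 2.63 (0.887 to 10.5), from 21 against 4 reads in Gm12796. The island in Gm35476 that overlapped the edge of Traf2, an adaptor of TNF receptors, had 47 against 25 reads and a fold of 0.941 (0.568 to 1.60).

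Markers of other cells were read in the same way. NK cell and group 1 innate lymphoid cell markers had 3 islands at 3 of 12 genes, with a pooled fold of 1.66 (1.08 to 2.61). All 3 islands were called (62.6% of all nuclear islands). The 3 genes were Klrb1c, which encodes NK1.1 (61 against 20 reads), Eomes, a T-box factor of NK cells (19 against 4), and Ccl5, a chemokine gene (16 against 5). Of 11 markers of group 2 innate lymphoid cells, 1 was nearest to islands, the enzyme gene Arg1. It had 2 in Gm36228 with 31 against 6 and 10 against 1 reads, and the pooled fold was 2.93 (1.30 to 7.75). Both were called, beside the same 62.6% of all nuclear islands. The T cell gene Cd5 and the epithelial keratin gene Krt8 had 1 each, with 11 against 4 reads, not called. Of the 11 B cell and the 11 myeloid markers, 0 were nearest to an island of the class. Islands that lie in or within 1 kb of those genes are outside the class and were not counted here.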

How the data were processed

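Per the submitters' processing notes, the tools behind the ChIC-seq islands were Bowtie2 2.4.2, a read aligner, and SICER 2.0, an island caller, with mm10 as the build. For window, gap and duplicate handling the setting is not given in the sources used here. The authors deposited, for each island, unscaled read counts in a peak and in a control library, per the file headers. They also deposited a fold, the ratio of peak-library reads to scaled control reads, and the p-value and FDR per island were deposited by the authors too. Recomputed folds used 1 scaling factor, 1.997, and recomputed FDR values differed from the deposited ones by at most 4.96e-08. Widths are multiples of 200 bp. The table's islands hold 483771 peak-library and 189291 control-library reads, and how deeply either library was sequenced in all is unknown.

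Starts and ends were moved to positions counted from 1. Distances are from island midpoints to gene bodies in RefSeq GRCm38.p6, which gave symbols and biotypes. A gene's start was taken from its promoter windows or, where these lack it, from its outer end. The exact binomial test (scipy 1.17.1) was checked on simulated reads, without a step that picks islands by their reads. Shares have Clopper-Pearson 95% intervals. The planned design was kept, and each group has 1 library. Named islands were the 10 with the highest and 3 with the lowest fold among those of at least 20 peak-library reads (the 10 also with a control read), those passing the binomial test, the 5 of lowest FDR, the 3 widest, those at microRNA genes, at the noncoding genes with most islands, and at listed genes. Of these, the text gives the values that carry each group. The members and lists were chosen with earlier results of these data known. Scaling, distances, overlap, biotype, read limits and thresholds were varied.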

Additional observations from a re-analysis of the deposited data

How the results depend on the processing

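The number of islands stayed within 1.5 times of 866 under all 5 alternatives to the rule, from 586 to 867. The pooled fold kept its side of 1 throughout, which the picking of islands by peak-library reads partly fixes. It was 1.76 with the midpoint inside the noncoding gene and 1.76 over 5 kb from coding genes, 1.64 within 20 kb, 1.45 without the read limit, which adds 1 island, and 1.53 with at least 20 peak-library reads. With equal totals it was 1.33 and with no scaling 3.39. Equal totals means those of the whole table, 483771 and 189291 reads, which include the mitochondrial and high-read islands left out. The 19513 nuclear islands alone hold 386196 against 119307 reads. Equal totals over those alone would lower the folds further, and were not tried. The median fold was 1.64 with at least 20 reads, 1.49 with equal totals and 3.80 with no scaling. The share with a fold below 1 was 12.3%, 20.8% and 0.231% under those settings. The share at an FDR of 0.05 or less was 47.0% with equal totals and 97.2% with no scaling, and at an FDR of 1e-05 it was 22.9%. The binomial test passed 0 islands with equal totals, 4 when adjusted over all 19531 islands and 9 when one-sided, an alternative chosen after seeing the data. Of the 103 named islands with a control read, 84 had a fold above 1, 71 with equal totals and 101 with no scaling. No paired analysis was possible because each group has 1 library. A median of 4 control-library reads per island limits what single islands can show.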

Other observations

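Some of the islands also covered genes of small structural RNAs, a feature noticed in the data and not used to choose them. A transfer RNA gene lay under 25 of the 866 islands. Transfer RNA genes are transcribed by RNA polymerase III from promoters inside the gene. The 25 islands held 846 against 322 reads, a pooled fold of 1.32 (1.16 to 1.50), beside 1.30 (1.22 to 1.38) for all 111 nuclear islands over such genes and 1.70 for the class. Their median was 30 peak-library reads, against 15 over the class. Islands of the class with at least 20 peak-library reads stood at 1.53 (1.47 to 1.59). The island with the most such genes, 5, lay in Gm31151 on chromosome 19, where 83 against 28 reads gave a fold of 1.48. Highest in fold was 1 in Gm41421 on chromosome 16, at 4.51 from 18 against 2 reads, and lowest 1 in Gm41953 on chromosome 1, at 0.779 from 14 against 9.

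Small nucleolar RNA genes lay under 8 islands, with 278 against 117 reads, for a pooled fold of 1.19 (0.955 to 1.49), beside 1.24 (1.11 to 1.38) for all 36 nuclear islands over such genes. Their hosts included Snhg3, Snhg5, Snhg8, Snhg12, Snhg16 and Dancr. Dancr had the highest fold, 2.13, from 34 against 8 reads, and Snhg8 the lowest, 0.784, from 36 against 23.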
